A study of Homo sapiens with 12 samples.

Results

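The myeloid transcription factor genes SPI1, CEBPA, CEBPB, CEBPD, CEBPE, CEBPG, IRF8 and KLF4 were chosen by symbol as factors that drive myeloid differentiation. They made up 8 of the 63677 genes counted. The study sequenced the 3' ends of polyadenylated transcripts from SET-2, a human cell line established from acute myeloid leukemia. The cells carried either LSD1 with an inserted arginine (Leu659_Asn660insArg, called insR, and described in the labels as resistant to the drug) or wild-type (WT) LSD1. Each genotype was exposed for 48 h to 250 nM GSK-LSD1, an inhibitor of the histone demethylase LSD1, or to 0.1% v/v DMSO, the solvent. The 4 groups were thus insR with GSK-LSD1, insR with DMSO, WT with GSK-LSD1 and WT with DMSO, each with 3 libraries. The labels do not say whether the insR cells came from 1 clone or whether the 3 libraries of a group came from separate cultures, so all p-values below measure only the spread between these libraries, which may be technical.

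PU.1, the protein of SPI1, is an ETS-family factor needed to form the macrophage and granulocyte lineages. The C/EBP factors are basic leucine zipper (bZIP) proteins that bind DNA as dimers, and they take the granulocyte and monocyte programme onward from C/EBPα in progenitors to C/EBPε in late granulocyte precursors. IRF8 and KLF4 act with PU.1 in monocytes and dendritic cells. LSD1 removes methyl groups from histone H3 and is held at DNA by the repressors GFI1 and GFI1B, which limit several of these factors in blood progenitors.

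Libraries held 4837096 to 6615832 reads in genes for insR with GSK-LSD1, 5789614 to 10141155 for insR with DMSO, 5022916 to 9599482 for WT with GSK-LSD1 and 5562853 to 7438754 for WT with DMSO. Levels are given as CPM (the gene's read count scaled to the reads of its library, a level and not a difference), with libraries scaled to each other by edgeR's trimmed mean method. A group was taken as too low to measure where its 3 libraries held 3 counts or fewer in all, which is called the floor here. In a single library 3 counts corresponded to 0.296 to 0.62 CPM. Of the 8 genes, 6 had enough reads to test, and a gene was called at an adjusted p under 0.05 by edgeR's quasi-likelihood test. CEBPA and CEBPE entered that test only through the groups in which they were high, so a count over the tested genes supports nothing about the family.

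IRF8 and KLF4 were too low to measure in every group. Each had 0 counts in all 12 libraries, out of 78420571 reads in genes, which allows a mean level of up to 0.0383 CPM by counting error alone. No fold change was given for either, at any treatment or genotype. At this depth the data do not show whether the drug or the insertion moved them.

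CEBPA and CEBPE had few reads, at most 49 and 64 counts over the 3 libraries of a group. Their levels separated the 2 genotypes in opposite directions. CEBPA was too low to measure in both insR groups, and CEBPE was too low to measure in WT with DMSO. Of the 8 genes, 6 had a promoter in the RefSeq table, and the promoters of CEBPA and CEBPE are shown here because each of these genes was at 0 counts in 1 whole group and had reads in others. Both are the 250 bases before the start of the gene, from RefSeq on GRCh38.p14, minus strand, at chr19:33302535-33302784 for CEBPA and chr14:23119256-23119505 for CEBPE. Capitals mark the PU.1 core letters GAGGAA.

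CEBPA: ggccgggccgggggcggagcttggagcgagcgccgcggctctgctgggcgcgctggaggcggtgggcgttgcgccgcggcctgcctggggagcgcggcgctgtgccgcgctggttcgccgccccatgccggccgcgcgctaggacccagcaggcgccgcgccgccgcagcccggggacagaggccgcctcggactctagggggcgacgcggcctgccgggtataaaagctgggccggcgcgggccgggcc

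CEBPE: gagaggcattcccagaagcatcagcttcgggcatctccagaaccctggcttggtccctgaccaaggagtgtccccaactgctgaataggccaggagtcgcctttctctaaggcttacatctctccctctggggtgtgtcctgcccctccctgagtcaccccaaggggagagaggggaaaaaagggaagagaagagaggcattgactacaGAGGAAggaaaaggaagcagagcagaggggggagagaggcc

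The CEBPA promoter was 81.2% G or C and held 41 CpG dinucleotides, while the CEBPE promoter was 57.2% G or C and held 2. The medians over all 35116 promoters of this length were 58.0% G or C and 11 CpG dinucleotides. Both strands were searched for the PU.1 core GAGGAA, the C/EBP letters TTGCNNAA, the box CCAAT, the letters AGATAA that erythroid zinc-finger factors bind, and the RUNX letters TGTGGT. The CEBPE promoter held 1 match, GAGGAA on the plus strand of the printed sequence, starting 41 bases before the start of the gene. The CEBPA promoter held none of these letters. All promoters of the table held GAGGAA in 23.6%, TTGCNNAA in 9.05%, CCAAT in 32.0%, AGATAA in 9.17% and TGTGGT in 11.0%. A match is a string of letters and was not tested as a binding site.

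CEBPA, on chromosome 19, encodes C/EBPα, the factor that commits progenitors to the granulocyte and monocyte lineages. It had 1, 0 and 1 counts in insR with GSK-LSD1, 0 in each of the 3 insR libraries with DMSO, 15, 13 and 21 counts in WT with GSK-LSD1, and 3, 2 and 2 counts in WT with DMSO. The WT libraries with GSK-LSD1 stood above all the others, and no insR library held more than 1 read. In insR cells both treatments were at or under the floor, with 2 counts with GSK-LSD1 and 0 with DMSO over 3 libraries, so no fold was given. In WT cells the level was 2.49 ± 0.349 CPM with GSK-LSD1 and 0.384 ± 0.131 CPM with DMSO (SD, n = 3 each). CEBPA rose with GSK-LSD1 in WT cells by 2.65 on the log2 scale (SE 0.54, 95% interval 1.53 to 3.77, edgeR adjusted p = 0.000371), from 49 counts over the 3 libraries with GSK-LSD1 against 7 with DMSO. With so few reads in the DMSO libraries the size of this fold is imprecise.

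Between genotypes, CEBPA was lower in insR cells under both treatments. With GSK-LSD1, insR libraries held 2 counts, at or under the floor, and WT libraries 49, and the ratio of scaled counts was 21.1 times lower in insR cells, with a 95% counting interval of 5.53 to 179 (edgeR adjusted p = 2.1e-05). With DMSO, insR libraries held 0 counts and WT libraries 7, at least 2.69-fold lower in insR cells when 3 counts stand for the group at 0 (edgeR adjusted p = 0.0173). The call with DMSO was lost without replicate 1 of insR with DMSO (edgeR adjusted p = 0.0673) or without replicate 1 of WT with DMSO (edgeR adjusted p = 0.053). Its range across the alternatives was 0.00642 to 0.0673. The difference between the genotypes' responses could not be estimated for CEBPA, because 1 of the 4 groups was at 0. The fit gave it an edgeR adjusted p of 0.598, which does not show that the 2 responses were alike.

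CEBPE, on chromosome 14, encodes C/EBPε, which is needed late in granulocyte maturation. It had 16, 18 and 28 counts in insR with GSK-LSD1, 38, 13 and 13 counts in insR with DMSO, 5, 1 and 9 counts in WT with GSK-LSD1, and 0 counts in each of the 3 WT libraries with DMSO. Every insR library stood above every WT library, and the insR libraries of the 2 treatments overlapped. The levels were 3.55 ± 0.893 CPM in insR with GSK-LSD1, 2.76 ± 0.954 CPM in insR with DMSO and 0.685 ± 0.427 CPM in WT with GSK-LSD1 (SD, n = 3 each).

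With DMSO, CEBPE was at least 18.5-fold higher in insR than in WT cells, from 64 counts against 0 (edgeR adjusted p = 4.56e-06). With GSK-LSD1 the genotypes differed by 2.25 on the log2 scale, higher in insR (SE 0.47, 95% interval 1.27 to 3.24, edgeR adjusted p = 0.000349). In insR cells the fold of GSK-LSD1 over DMSO was 0.30 on the log2 scale, and its 95% interval ran from -0.47 to 1.08 (edgeR adjusted p = 0.949). In WT cells CEBPE had reads only with the drug, at least 4.62-fold more, 15 counts with GSK-LSD1 against 0 with DMSO (edgeR adjusted p = 0.00259). It entered this test through its reads in insR cells. When only the WT libraries were fitted, CEBPE was too low to test. For CEBPE the difference between the 2 responses could not be estimated on the log2 scale, since WT with DMSO was at 0 counts. The fit still gave it an edgeR adjusted p of 0.0137, which compares logarithms of levels with a group at 0 and does not show which genotype gained more reads. That call was lost on the logarithms of the deposited normalized values (limma adjusted p = 0.0562, with a range of 0.00666 to 0.0562 over all alternatives).

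**Figure D1:**
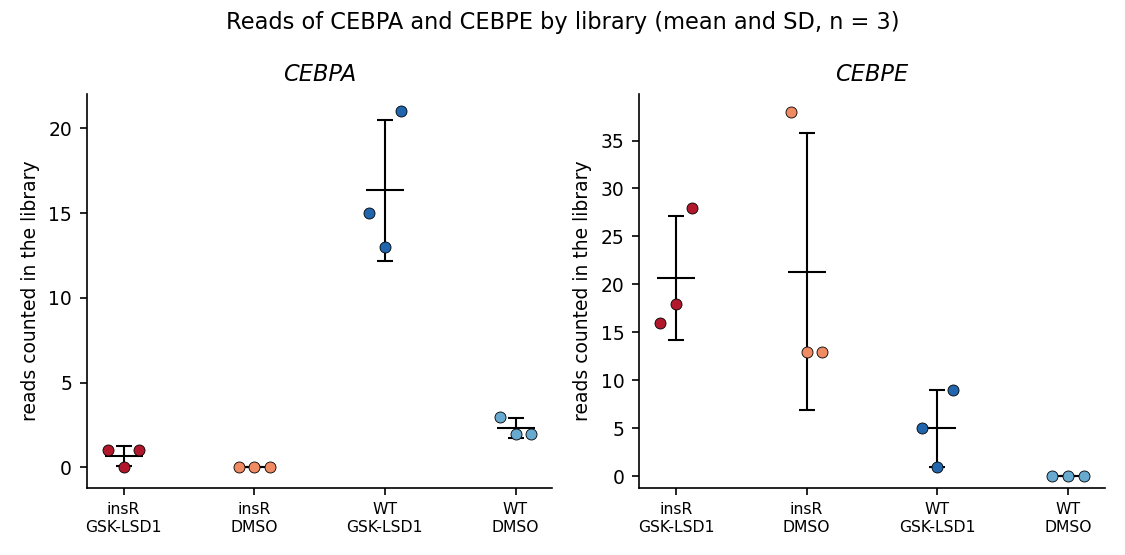
Reads counted per library (vertical axis) for CEBPA and CEBPE in the 4 groups (horizontal axis), with the mean and SD of 3 libraries. CEBPA stood at 0 or 1 counts in all insR libraries and at 13 to 21 in WT with GSK-LSD1, whereas CEBPE stood at 13 to 38 counts in insR libraries and at 0 in WT with DMSO.

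SPI1 lies on chromosome 11. Of the members well above the floor in every group, it alone was called higher with the drug, in WT cells. Its level was 19.5, 17.8 and 20.4 CPM in insR with GSK-LSD1, 13.6, 13.5 and 11.6 CPM in insR with DMSO, 25.0, 22.8 and 20.5 CPM in WT with GSK-LSD1, and 11.1, 10.6 and 9.29 CPM in WT with DMSO. The 4 groups did not overlap with each other, although the highest insR library and the lowest WT library with GSK-LSD1 were close, at 20.4 and 20.5 CPM. In insR cells the fold of GSK-LSD1 over DMSO was 0.57 on the log2 scale (95% interval 0.26 to 0.88), which did not pass over all genes tested (edgeR adjusted p = 0.0959). SPI1 rose in WT cells with GSK-LSD1 by 1.13 on the log2 scale (SE 0.15, 95% interval 0.81 to 1.44, edgeR adjusted p = 1.87e-06), with all 3 treated libraries above all 3 with DMSO.

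The order of the SPI1 group means was WT with GSK-LSD1 at 22.8 ± 2.25 CPM, insR with GSK-LSD1 at 19.3 ± 1.32, insR with DMSO at 12.9 ± 1.14 and WT with DMSO at 10.3 ± 0.917 (SD, n = 3 each). No neighbours in this order differed by the test. The fold of insR over WT was -0.23 with GSK-LSD1 (95% interval -0.52 to 0.07, edgeR adjusted p = 0.187) and 0.33 with DMSO (95% interval -0.00 to 0.66, edgeR adjusted p = 0.129). The difference between the SPI1 responses, insR minus WT, was -0.56 on the log2 scale (95% interval -1.0 to -0.11) and did not pass (edgeR adjusted p = 0.0603). The same difference passed with upper-quartile scaling (-0.60, edgeR adjusted p = 0.0438) and among genes of at least 10 CPM in 3 libraries (-0.60, edgeR adjusted p = 0.0319), and its adjusted p ran between 0.0319 and 0.182 over all alternatives. In bulk RNA such as this, a change in the number of cells of a type and a change in RNA per cell cannot be told apart.

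Markers of blood lineages moved between the same libraries. The 14 monocyte and macrophage markers summed to 155 to 166 CPM in insR with GSK-LSD1, 131 to 136 in insR with DMSO, 283 to 310 in WT with GSK-LSD1 and 109 to 132 in WT with DMSO, and 8 of them in insR with GSK-LSD1, 6 in insR with DMSO, 8 in WT with GSK-LSD1 and 5 in WT with DMSO exceeded 3 counts. S100A8, CD163 and FCN1 were at 0 in all 4 groups. LYZ averaged 128 CPM and ITGAM 66.9 CPM of the WT sum with GSK-LSD1, and 83.4 and 19.3 CPM with DMSO. Of the 14 markers 5 were tested. In WT cells 3 of the 5 rose with GSK-LSD1 and 0 fell, against 22.7% and 22.5% of all genes. In insR cells 1 rose and 0 fell, against 0.241% and 0.264%. The 14 erythroid markers summed to 5289 to 5732 CPM in insR with GSK-LSD1, 6268 to 6929 in insR with DMSO, 860 to 931 in WT with GSK-LSD1 and 3605 to 3920 in WT with DMSO. With GSK-LSD1 13 of the 13 tested fell in WT cells, against 22.5% of all genes. In insR cells 3 of the 13 fell, against 0.264% of all genes. For 12 the response was more positive in insR than in WT cells, against 13.3%. The 12 neutrophil markers summed to at most 15.9 CPM in any library, and 4 of them in insR with GSK-LSD1, 6 in insR with DMSO, 6 in WT with GSK-LSD1 and 2 in WT with DMSO exceeded 3 counts. AZU1, FCGR3B, MMP8 and CEACAM8 were at 0 in all 4 groups. The 11 megakaryocyte markers summed to 757 to 825 CPM in insR with GSK-LSD1, 788 to 838 in insR with DMSO, 1152 to 1330 in WT with GSK-LSD1 and 822 to 878 in WT with DMSO. Of 6 tested, 1 rose and 4 fell in WT cells, against 22.7% and 22.5% of all genes. Among 6 tested mast cell, basophil or eosinophil markers, 3 rose and 1 fell in WT cells, against 22.7% and 22.5% of all genes. The part of these lineage shifts in the SPI1, CEBPA and CEBPE results was not tested.

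CEBPB, on chromosome 20, encodes C/EBPβ, a factor of emergency granulocyte production and of macrophages. It differed by genotype and showed no called response to the drug. Its level was 46.9, 65.5 and 67.1 CPM in insR with GSK-LSD1, 61.7, 62.0 and 77.0 CPM in insR with DMSO, 26.1, 44.4 and 31.3 CPM in WT with GSK-LSD1, and 35.1, 36.2 and 25.2 CPM in WT with DMSO. Every insR library stood above every WT library, and the treatments overlapped within each genotype. CEBPB was higher in insR than in WT cells by 1.05 on the log2 scale with DMSO (SE 0.20, 95% interval 0.62 to 1.47, edgeR adjusted p = 0.000962) and by 0.83 with GSK-LSD1 (SE 0.20, 95% interval 0.40 to 1.25, edgeR adjusted p = 0.00295). The fold of GSK-LSD1 over DMSO was -0.16 in insR cells (95% interval -0.56 to 0.25, edgeR adjusted p = 0.942) and 0.06 in WT cells (95% interval -0.38 to 0.50, edgeR adjusted p = 0.834). The difference between the responses was -0.22 (95% interval -0.82 to 0.38, edgeR adjusted p = 0.617). No source used here gives the strand setting of the counting, so reads of CEBPB and of its antisense neighbour CEBPB-AS1 cannot be told apart. CEBPA also overlaps 2 opposite-strand genes, AC008738.3 and AC008738.5, both at 0 counts in every library.

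CEBPD encodes C/EBPδ, a factor induced in the acute-phase response and in myeloid cells. Its level was 12.1, 10.6 and 11.9 CPM in insR with GSK-LSD1, 9.45, 10.4 and 12.1 CPM in insR with DMSO, 6.43, 4.61 and 6.11 CPM in WT with GSK-LSD1, and 8.78, 8.71 and 8.04 CPM in WT with DMSO. The WT libraries with GSK-LSD1 were the lowest of all 12, and every insR library stood above every WT library. CEBPD fell in WT cells with GSK-LSD1, at a fold of -0.56 on the log2 scale (SE 0.21, 95% interval -0.98 to -0.14, edgeR adjusted p = 0.0283). This call was lost with DESeq2 (DESeq2 adjusted p = 0.0644), with no filter on low genes (edgeR adjusted p = 0.063), when only the WT libraries were fitted (edgeR adjusted p = 0.0531), without replicate 1 or 2 of WT with DMSO (edgeR adjusted p = 0.0627 and 0.0694) and without replicate 2 of WT with GSK-LSD1 (edgeR adjusted p = 0.107), and over all alternatives its adjusted p ran between 0.0165 and 0.107.

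CEBPD was higher in insR than in WT cells under the drug by 1.0 on the log2 scale (SE 0.20, 95% interval 0.59 to 1.41, edgeR adjusted p = 0.000158). With DMSO the fold of insR over WT was 0.31 (95% interval -0.08 to 0.70, edgeR adjusted p = 0.237). In insR cells the fold of GSK-LSD1 over DMSO was 0.13 (95% interval -0.25 to 0.51, edgeR adjusted p = 0.957). The responses differed by 0.69, more positive in insR cells (95% interval 0.12 to 1.26), without passing (edgeR adjusted p = 0.0681).

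CEBPG, on chromosome 19, encodes C/EBPγ, a short family member that lacks an activation domain and pairs with other bZIP proteins. It had 40.4, 42.5 and 35.6 CPM in insR with GSK-LSD1, 38.2, 39.6 and 38.0 CPM in insR with DMSO, 44.4, 48.8 and 42.7 CPM in WT with GSK-LSD1, and 41.4, 41.9 and 37.0 CPM in WT with DMSO. The WT libraries with GSK-LSD1 stood above all others, and the remaining 3 groups overlapped. No comparison passed for CEBPG. The fold of GSK-LSD1 over DMSO was 0.03 in insR cells (95% interval -0.19 to 0.25, edgeR adjusted p = 0.99) and 0.17 in WT cells (95% interval -0.05 to 0.39, edgeR adjusted p = 0.207), with a difference of -0.14 (95% interval -0.45 to 0.18, edgeR adjusted p = 0.554). The fold of insR over WT was -0.06 with DMSO (95% interval -0.28 to 0.16, edgeR adjusted p = 0.729) and -0.20 with GSK-LSD1 (95% interval -0.42 to 0.03, edgeR adjusted p = 0.129), and the value with GSK-LSD1 passed among genes of at least 10 CPM (-0.24, edgeR adjusted p = 0.0485).

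**Figure D2:**
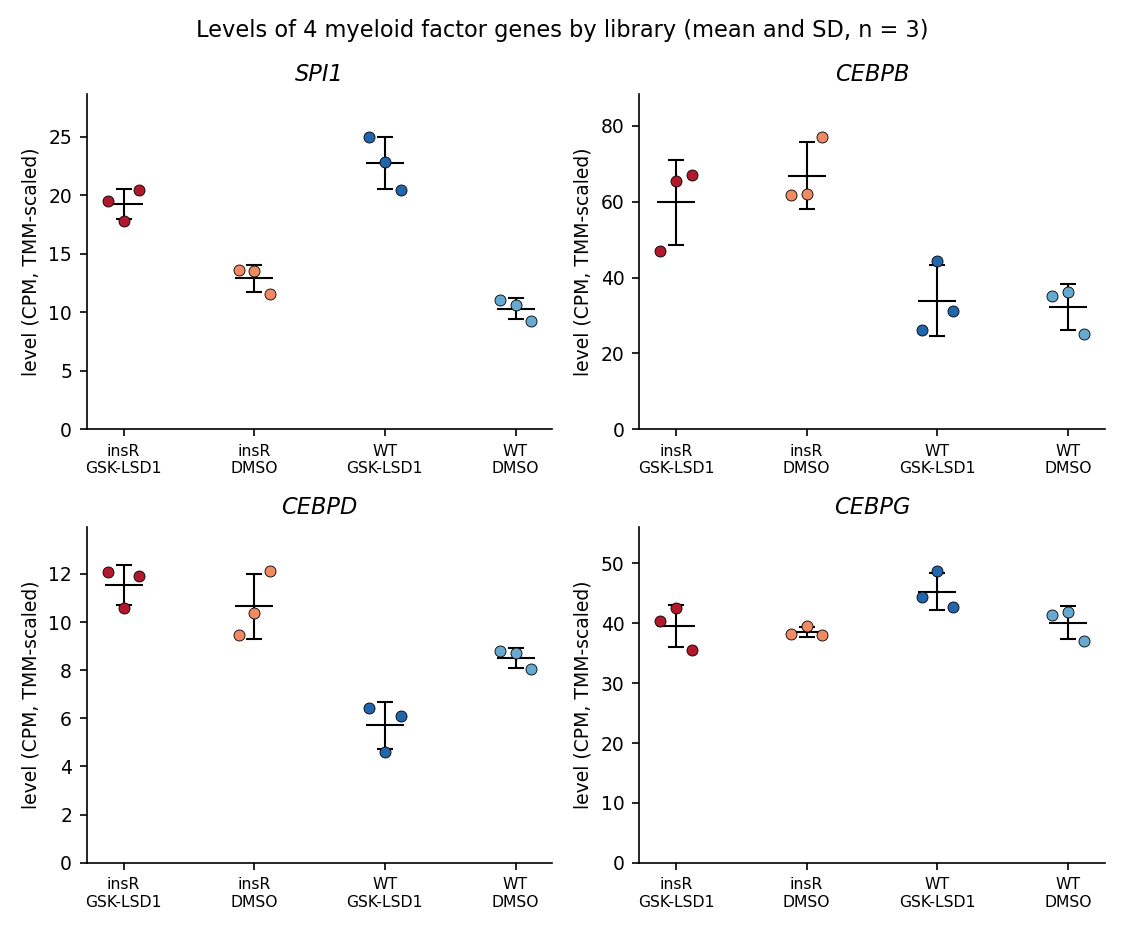
Level in CPM (vertical axis, from 0) of SPI1, CEBPB, CEBPD and CEBPG in each library of the 4 groups (horizontal axis), with the mean and SD of 3 libraries. SPI1 was high in both groups with GSK-LSD1, CEBPB was high in both insR groups, CEBPD was lowest in WT with GSK-LSD1, and CEBPG lay between 35.6 and 48.8 CPM throughout.

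The counts of called members stand here beside the shares of all 12864 genes tested. CEBPA and CEBPE are among the 6 only through the groups in which they were high. The counts, also those of libraries that do not overlap, therefore support nothing about the family. In insR cells 0 of the 6 tested members passed for GSK-LSD1 over DMSO, where 0.505% of all genes did; 1 of the 6 had an unadjusted p under 0.05 by edgeR, as did 996 of the 12864 genes. By limma 0 of the 6 passed, and by DESeq2 0 of the 4 that it tested. For 1 of the 6, SPI1, the insR libraries did not overlap, against 13.7% of all genes. In WT cells 4 of the 6 passed for GSK-LSD1 over DMSO, where 45.2% of all tested genes did. Of these 4, 3 were higher (22.7% of all genes), among them CEBPA and CEBPE, and 1 was lower (22.5%). The libraries of the 2 groups did not overlap for 5 of the 6, against 51.9% of all genes. The difference between the responses passed for 1 of the 6, CEBPE with its group at 0, where 25.1% of all genes passed. With DMSO, insR and WT cells differed for 3 of the 6, where 30.1% of all genes differed, and did not overlap for 5, where 42.4% did not. With GSK-LSD1 they differed for 4 of the 6, where 54.5% of all genes differed, 3 higher in insR (27% of all genes) and 1 lower (27.5%), and did not overlap for 6, where 60.1% did not. Each comparison shares libraries with others, so these counts are not independent of one another.

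**Figure D3:**
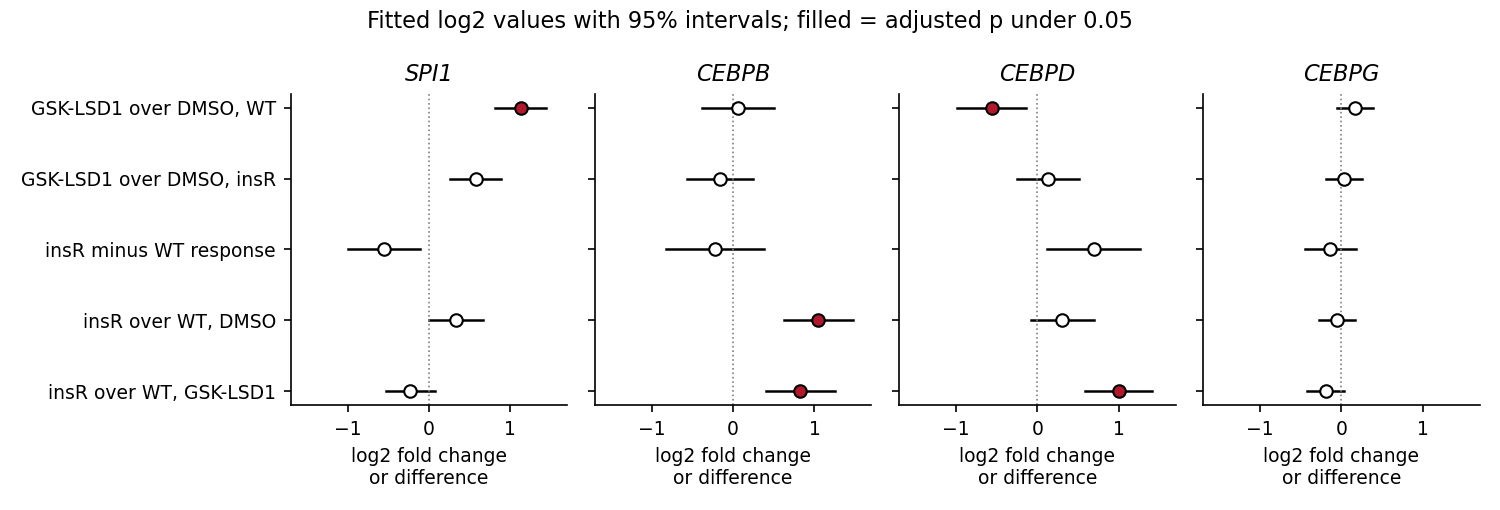
Fitted log2 fold change, or difference between the responses, with its 95% interval (horizontal axis) in 5 comparisons (rows). The 4 members shown were well above the floor in every group, and filled points passed at an adjusted p under 0.05. SPI1 passed for GSK-LSD1 over DMSO in WT cells, CEBPB passed for insR over WT under both treatments, CEBPD passed for GSK-LSD1 over DMSO in WT and for insR over WT with GSK-LSD1, and CEBPG passed in none.

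The remaining bZIP factors, which can pair with C/EBP proteins or share their class, moved both ways with GSK-LSD1 in WT cells. Of 20 listed genes 16 were tested, 4 rose and 3 fell, against 22.7% and 22.5% of all genes, and their median fold was -0.12 on the log2 scale, against 0.01 over all genes tested. ATF3, a stress-induced factor, was at 1.34 ± 0.28 CPM with GSK-LSD1 and 1.76 ± 1.1 CPM with DMSO in insR cells (SD, n = 3 each), and its fold of -0.54 did not pass (edgeR adjusted p = 0.87). In WT cells it was at 15.2 ± 1.8 CPM with GSK-LSD1 and 1.41 ± 0.29 CPM with DMSO, and rose by 3.39. The difference between the responses passed (-3.93, edgeR adjusted p = 7.6e-06). FOSL2, an AP-1 subunit, rose in both genotypes, by 0.52 in insR cells (edgeR adjusted p = 0.027) and 1.66 in WT cells. In insR cells FOSL2 was the 1 of the 16 that passed (0.241% of all genes were higher), and the difference between the responses was more positive in insR cells for 2 and more negative for 4, against 13.3% and 11.8% of all genes. JUNB fell by 1.31 in WT cells, BATF by 0.49 and CEBPZ, a CCAAT-binding protein of another family despite its symbol, by 0.40.

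With DMSO, 3 of the 16 bZIP genes were higher in insR than in WT cells and 2 were lower, against 14.5% and 15.6% of all genes. JUND was at 179 ± 32 CPM in insR and 86.2 ± 11 CPM in WT cells, a fold of 1.05 on the log2 scale, and JUNB differed by 0.98. FOSB, an immediate-early AP-1 gene, differed by 2.99. BATF, at 6.34 ± 1.1 CPM in insR and 24 ± 1.2 CPM in WT cells, was lower, with a fold of -1.89, as was JDP2, an AP-1 repressor, with a fold of -1.02. FOS, MAF and HLF were among those too low to test.

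Of 23 other ETS, IRF and KLF genes, 19 were tested, and in WT cells 9 rose and 2 fell with GSK-LSD1, against 22.7% and 22.5% of all genes, with a median fold of 0.38. ERG, an ETS factor of blood stem cells, was at 324 ± 42 CPM with GSK-LSD1 and 120 ± 16 CPM with DMSO, and rose by 1.43. ETS1 rose by 0.98, FLI1, a megakaryocyte factor, by 0.68, and ELF4 by 0.63. KLF1, the erythroid KLF factor, fell by 0.92, and KLF3 by 0.62. In insR cells none of the 19 passed by edgeR, against 0.241% of all genes higher and 0.264% lower, and the difference between the responses passed for 8, of which 2 were more positive and 6 more negative in insR cells (13.3% and 11.8% of all genes). With DMSO 4 of the 19, among them ELF1, ETS2 and FLI1, were lower in insR than in WT cells, and 0 were higher. Of all genes 15.6% were lower and 14.5% higher. ELF1 lies on chromosome 13, ETS2 on 21 and FLI1 on 11, and whether these differences followed the chromosome was not tested.

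Partners and antagonists of PU.1 and C/EBP included the largest WT response among the list genes named here. GFI1, a repressor that recruits LSD1, was at 22.9 ± 2.8 CPM in insR with GSK-LSD1 and 13.5 ± 1.8 CPM in insR with DMSO, and at 184 ± 8.4 CPM in WT with GSK-LSD1 and 16.4 ± 2.98 CPM in WT with DMSO. It rose by 0.77 in insR cells (edgeR adjusted p = 0.0061) and by 3.48 in WT cells (edgeR adjusted p = 1.3e-16), and the responses differed by -2.71 (edgeR adjusted p = 1.6e-10). Its relative GFI1B, which acts in the erythroid and megakaryocyte lineages, rose by 0.55 in insR and 1.55 in WT cells, with a difference of -0.99 (edgeR adjusted p = 1e-06).

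Of the 16 tested of 17 listed partners and antagonists, 3 rose and 7 fell in WT cells, against 22.7% and 22.5% of all genes, with a median fold of -0.21. In insR cells GFI1 and GFI1B rose and EGR1 fell, where 0.241% of all genes rose and 0.264% fell. Of the 16, 5 had a more positive response in insR than in WT cells and 3 a more negative one, against 13.3% and 11.8%. RUNX1, which acts with PU.1 on shared enhancers, rose by 1.31 in WT cells. Its fold in insR cells, -0.02, did not pass (edgeR adjusted p = 0.99), and the responses differed by -1.33 (edgeR adjusted p = 1.3e-09). TRIB2, a pseudokinase that promotes the breakdown of C/EBPα protein, was at 127 ± 9.2 CPM with GSK-LSD1 and 302 ± 23 CPM with DMSO in WT cells, and fell by 1.25. ID2 fell by 0.99, TAL1 by 0.54 and GATA1, an erythroid factor that binds and opposes PU.1, by 0.63. GATA1 was at 74.7 ± 0.38 CPM with GSK-LSD1 and 74.9 ± 6.2 CPM with DMSO in insR cells, and the difference between its responses passed (0.62, edgeR adjusted p = 0.0022). With DMSO 6 of the 16 were higher in insR than in WT cells and 2 lower, against 14.5% and 15.6%. EGR1, a factor of macrophage differentiation, differed by 2.32, and TRIB1, which has the same effect as TRIB2 on C/EBPα protein, was at 19.5 ± 2.4 CPM in insR and 5.45 ± 0.62 CPM in WT cells, a fold of 1.86.

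**Figure D4:**
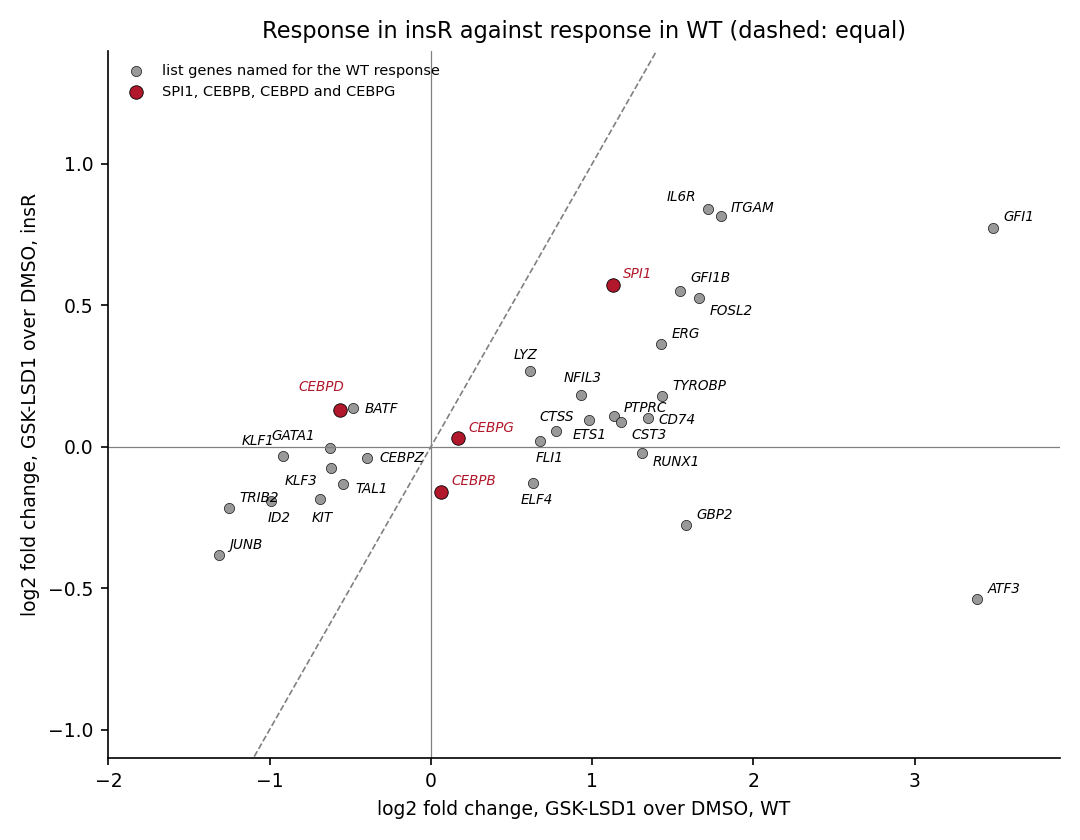
Log2 fold change of GSK-LSD1 over DMSO in insR cells (vertical axis) against that in WT cells (horizontal axis) for SPI1, CEBPB, CEBPD and CEBPG (red) and for list genes chosen for the WT response (grey); the dashed line marks equal responses and the axes have different scales. GFI1 was at 0.77 in insR and 3.48 in WT cells, SPI1 at 0.57 and 1.13, and ATF3 at -0.54 and 3.39.

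Cytokine receptors of the myeloid lineage, several of them reported targets of PU.1 or C/EBP, were tested for 7 of 10 genes. In WT cells 3 rose and 2 fell with GSK-LSD1, against 22.7% and 22.5% of all genes. With DMSO 4 were higher in insR than in WT cells and 1 was lower, against 14.5% and 15.6%. In insR cells IL6R rose and IL3RA fell, where 0.241% of all genes rose and 0.264% fell, and the difference between the responses was more positive in insR cells for 2 and more negative for 2, against 13.3% and 11.8%. IL6R, a subunit of the interleukin-6 receptor, was at 18.5 ± 0.41 CPM in insR with GSK-LSD1, 10.2 ± 1.6 CPM in insR with DMSO, 80.3 ± 4.6 CPM in WT with GSK-LSD1 and 24.3 ± 1.6 CPM in WT with DMSO. It rose in both genotypes, by 0.84 in insR and 1.72 in WT cells, with a difference of -0.88 (edgeR adjusted p = 0.0009). KIT, the stem cell factor receptor, fell by 0.68 in WT cells. IL3RA, a subunit of the interleukin-3 receptor, was higher in insR than in WT cells with DMSO by 3.03, at 23.0 ± 3.2 CPM in insR and 2.81 ± 0.66 CPM in WT cells. With GSK-LSD1 it fell by 0.79 in insR cells (edgeR adjusted p = 0.036) and rose by 1.32 in WT cells (edgeR adjusted p = 0.00014). The responses differed by -2.12 (edgeR adjusted p = 1.6e-05).

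Of 30 reported PU.1 targets 21 were tested, and in WT cells 13 rose and 1 fell with GSK-LSD1, against 22.7% and 22.5% of all genes, with a median fold of 0.43. PTPRC, which encodes the leukocyte antigen CD45, was at 945 ± 48 CPM with GSK-LSD1 and 431 ± 14 CPM with DMSO, and rose by 1.13. ITGAM, the integrin CD11b, rose by 1.80, TYROBP, a signalling adaptor of myeloid receptors, by 1.43, and CTSS, a lysosomal protease, by 0.78. In insR cells 1 of the 21, ITGAM, passed, at 0.82 (edgeR adjusted p = 0.0042), where 0.241% of all genes were higher. For 6 the responses differed, of which 1 was more positive and 5 more negative in insR cells, against 13.3% and 11.8%. With DMSO 8 were higher in insR than in WT cells, among them AIF1 at 0.58 and LST1 at 0.90, against 14.5% of all genes. Another 4 were lower, against 15.6%, among them LCP1, on chromosome 13, at -1.03 and NCF4, on chromosome 22, at -1.0.

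Of 26 reported C/EBP targets, 9 were tested. This list holds CEBPE itself and shares 8 genes with the PU.1 list, so the 2 lists are not separate evidence. In WT cells 5 of the 9 rose and 0 fell with GSK-LSD1, against 22.7% and 22.5% of all genes, with a median fold of 0.62. In insR cells 2 of the 9 rose, IL6R and ITGAM, which the PU.1 or receptor lists also hold, where 0.241% of all genes did. For 3 of the 9 the insR response was the more negative, against 11.8%, and for 0 the more positive. With DMSO 3 were higher in insR than in WT cells and 1 was lower, against 14.5% and 15.6%. LYZ, lysozyme, was at 128 ± 16 CPM with GSK-LSD1 and 83.4 ± 12 CPM with DMSO in WT cells, and rose by 0.62. Its fold in insR cells, 0.27, did not pass (edgeR adjusted p = 0.43). The 17 targets too low to test included S100A8 and the granule genes AZU1, PRTN3 and MMP8. Of 16 reported targets of IRF8 or KLF4 in monocytes, 9 were tested, although both factors were at 0 counts. These targets share 3 genes with the PU.1 list and 1 with the C/EBP list. They also share 1 with the ETS, IRF and KLF list, so they are not separate evidence either. In WT cells 7 rose and 0 fell, against 22.7% and 22.5% of all genes, with a median fold of 1.18, among them GBP2, an interferon-induced GTPase, at 1.58, CD74, the class II invariant chain, at 1.35, and CST3, cystatin C, at 1.18. In insR cells 0 of the 9 passed by edgeR, where 0.505% of all genes did. The difference between the responses passed for 5, each more negative in insR cells, where 11.8% of all genes were. With DMSO 3 were higher in insR than in WT cells and 2 lower, against 14.5% and 15.6%.

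**Figure D5:**
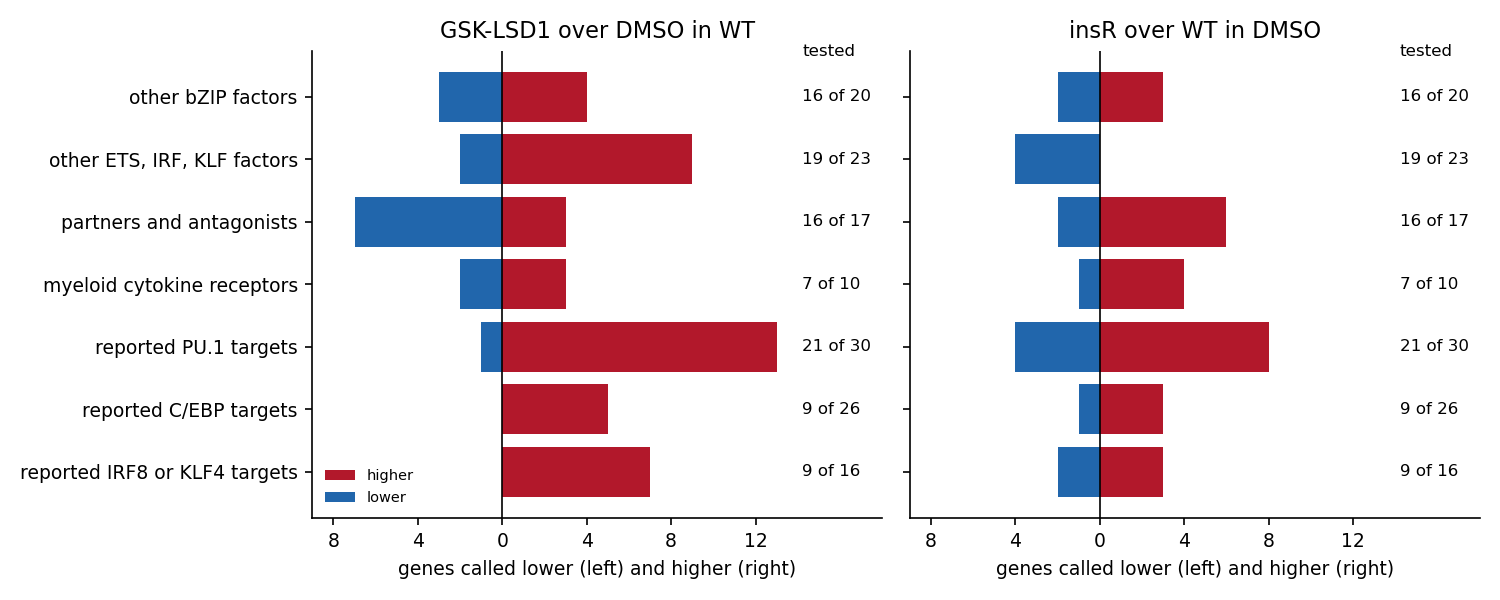
Number of genes called lower (left of 0, blue) and higher (right of 0, red) in 7 gene lists (rows), for GSK-LSD1 over DMSO in WT cells and for insR over WT with DMSO, with the number tested of those listed. Reported PU.1 targets had 13 higher and 1 lower in WT cells with GSK-LSD1, and other ETS, IRF and KLF factors had 0 higher and 4 lower in insR cells with DMSO.

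Among targets too low to test, 4 are given here that were chosen after their values were seen. CSF1R, the receptor that PU.1 is known to switch on in monocytes, had 4, 1 and 1 counts in insR with GSK-LSD1, 0 in each insR library with DMSO, 11, 4 and 10 counts in WT with GSK-LSD1 and 0 in each WT library with DMSO. ELANE, neutrophil elastase and a C/EBP target, had 4, 0 and 7 counts in insR with GSK-LSD1, 18, 5 and 19 counts in insR with DMSO and 0 in every WT library. CSF1R reads thus lay in the groups with GSK-LSD1 and ELANE reads in the insR groups. MPO, myeloperoxidase, had 13 and 16 counts in insR with GSK-LSD1 and with DMSO, and 15 and 3 in WT, summed over 3 libraries, and CD14 had 9 and 10 in insR and 19 and 3 in WT.

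Among 8329 protein-coding genes with a mean of at least 10 CPM over all 12 libraries, those that followed each member most closely were found. The measure was Pearson's r of log2(CPM + 1). The 12 libraries fall into 4 groups, so r mostly reflects the 4 group means. For SPI1 these were GDF3 (0.966), FAM111A (0.959) and SLC35F6 (0.956), and for CEBPA FOXN3 (0.995), TAOK3 (0.992) and RNF213 (0.991). For CEBPB they were CYTL1 (0.965), MCFD2 (0.963) and DTX3 (0.959), for CEBPD LIPH (0.983), MRPL21 (0.979) and LANCL3 (0.977), and for CEBPE C12orf57, ZSWIM7 and CCRL2 (0.964 each). GDF3 averaged 60.4 CPM in insR with GSK-LSD1, 26.9 in insR with DMSO, 97.8 in WT with GSK-LSD1 and 11.2 in WT with DMSO, the same order of groups as SPI1. With Spearman's rank correlation 0 of the 3 genes were shared for any of the 5 members.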

How the data were processed

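Polyadenylated RNA of 12 libraries was sequenced from 3' ends (QuantSeq, forward), per the labels' protocols. Per the submitters' processing notes the tools were bcl2fastq 2.2, STAR 2.6.0c, HTSeq 0.9.1 and DESeq2, on hg19; no source used here gives the annotation release or strand setting. The authors deposited read counts per gene for each library, and a table of normalized values (signal, counts divided by size factors). Whole reads were recovered from 100% of the normalized values (tolerance 0.01), with 0 genes differing from the counts, so both hold the same reads. Rows that name no gene were left out: reads not unique were 57.9 to 62.6% of a library's table, no feature 5.27 to 7.92% and ambiguous 0.676 to 0.748%.

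Of 63677 Ensembl IDs, 52181 matched a symbol. Counts were tested with edgeR 4.0.16 (TMM, filterByExpr, robust quasi-likelihood, all 12 libraries in 1 fit without a replicate block, R 4.3.3), with Benjamini-Hochberg adjustment over 12864 genes at 0.05. SEs are the log2 fold change over the root of F. Alternatives were other scalings and filters, DESeq2 1.42.0, limma 3.58.1 (voom on counts, and trend on log2(deposited normalized value + 1)), a replicate block, fits of only the groups compared, and leaving out each library. Intervals and floors for counts cover counting error only. The fits were tested on simulated data.

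All members were named. Per list, up to 4 genes per direction of lowest p called for the WT response, and up to 3 for insR against WT with DMSO, were named at a mean of 10 CPM or more, and 3 most similar genes per called member. Some genes that this rule selects are not reported here. Members and lists were chosen with earlier results of these data known. Promoter sequences came from RefSeq on GRCh38.p14, and only their own coordinates are given on that build.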

Additional observations from a re-analysis of the deposited data

Results flagged for a closer look

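For the response of CEBPE to GSK-LSD1, the fitted difference between insR and WT cells was -4.98 on the log2 scale and passed the threshold (edgeR adjusted p = 0.0137), but it did not pass with limma-trend (adjusted p = 0.0562). The counts behind it were 62 in insR with GSK-LSD1 and 64 in insR with DMSO, and 15 in WT with GSK-LSD1 and 0 in WT with DMSO. The fitted value depends on how edgeR treats the group at 0. It is no fold, and a difference between the genotypes' responses cannot be read from it. Groups of 3 libraries were too small to test for outlying samples.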

How the results depend on the processing

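Under the alternatives, 148 counts of calls stayed within 1.5 times the reported count and 12 did not, and 443 member fold changes kept both direction and side of the threshold, 9 changed sign, 9 lost a call and 3 gained one. The members called for GSK-LSD1 over DMSO in WT cells were 2 rather than 4 among genes of at least 10 CPM. CEBPA and CEBPE were not tested there. The count was also 2 when only the WT libraries were fitted, where 5 members were tested and CEBPE was not. The members called for the difference between the responses were 2 rather than 1 with upper-quartile scaling and 0 with limma-trend, and those for insR over WT with DMSO were 1 rather than 3 among genes of at least 10 CPM. The genes called for GSK-LSD1 over DMSO in insR cells were 118 with no filter and 39 with limma-trend rather than 65, and 28 to 45 when 1 library was left out. Left out in turn, single libraries gave 0 members called for the drug in insR cells, 3 to 4 in WT cells, 2 to 3 for insR over WT with DMSO and 4 with GSK-LSD1.

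Some values that did not pass changed sign. The fitted difference between the CEBPA responses was -1.15 with limma-voom and -1.63 with limma-trend, and -0.16 to 0.59 when 1 library was left out. The fold of CEBPG in insR cells was -0.026 to 0.11, and that of CEBPB in WT cells -0.16 to 0.20, when 1 library was left out. The cause was not tested.

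Replicate numbers were shared between groups. Deviations of same-numbered libraries correlated at -0.335 to 0.423 over 18 pairs of libraries and 8646 genes. Replicate 2 was positive in all 6 pairs of groups (0.163 to 0.371). All 3 numbers exceeded 0.1 only between WT with GSK-LSD1 and insR with DMSO (0.201 to 0.423). Those groups were not compared directly and meet only in the difference between the responses. In no pair of groups compared directly did all 3 exceed 0.1, so the numbers were not taken to pair the samples. Of the 12 libraries, 4 lay closest to those of their own number. With the replicate number as a block, 60 genes were called for the drug in insR cells rather than 65, 5818 rather than 5816 in WT cells and 3198 rather than 3228 for the difference, and no member's call changed. Depth limits CEBPA, CEBPE, IRF8 and KLF4, at or near the floor of 3 counts.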
